A study of Homo sapiens and Mus musculus with 13 samples.

Results

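Stem cell and leukaemia transcription factors were examined in a mouse blood progenitor line with and without NPM1c, the mutant nucleophosmin of human acute myeloid leukaemia. The set comprises 10 named genes, Hlf, Erg, Myb, Myc, Sox4, Mecom, Mn1, Bahcc1, Prdm16 and Etv6, and all 10 were found by symbol among the 37991 genes of the table. Sox4 is listed under 2 Ensembl identifiers, which makes 11 entries, and 8 of these entries had enough reads to be tested. Mecom, Mn1 and Prdm16 did not.

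These genes encode DNA-binding proteins and chromatin regulators, several of which hold blood cells in an immature, self-renewing state. In mouse and human marrow several of these factors are high in stem cells or early progenitors and decline as cells mature. Many genes of the set drive leukaemia when they are fused to another gene, moved next to a foreign enhancer or kept on too long. HLF marks long-term stem cells, ERG and ETV6 are ETS-family factors needed for stem cell maintenance, and MYB and MYC drive the division of progenitors.

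The NPM1c knock-in group consists of 3 single-cell clones, labelled 4, 12 and 18, made by CRISPR/Cas9 insertion of NPM1c fused to GFP into the mouse line. The parental group consists of 2 libraries of the same line without the knock-in, labelled wild-type. Both groups carry the HOXB8 that immortalizes the line and were grown with medium conditioned by stem cell factor-producing cells (1%) and 1 µM beta-estradiol; the labels list no drug treatment for them. Each clone descends from 1 cell, the labels do not say how many Npm1 alleles were changed, and no source states whether separate cultures gave the parental libraries. P-values may therefore measure only technical spread on the parental side. The column headings inside the clone files carry other clone numbers than the sample titles (the file of the sample titled clone 12 is headed 4), and clones are named here by title. The groups are the same under either naming. The human libraries of the series carry no gene symbols and were not analysed here.

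Values are read counts divided by 1 size factor per library, called normalized read counts below. They correspond to 7358340, 12235174 and 9427149 reads in clones 4, 12 and 18, against 9728260 and 99557475 reads in parental replicates 1 and 2, so the second parental library is by far the deepest. Of the 13132 genes tested it fell short of the other parental library by over 1.5-fold in 1025 (7.81%) and exceeded it by as much in 664 (5.06%). None of the 8 tested entries of the set was among these genes. Npm1, the targeted gene, had a normalized read count of 14310, 15140 and 14140 in clones 4, 12 and 18, against 25700 and 25710 in the parental libraries (log2 fold change -0.82, SE 0.0673, adjusted p = 0.000533, limma). Whether reads of the inserted sequence were counted under Npm1 was not tested. Hoxb8 averaged 5492 ± 1280 (SD, n = 3) in the clones and 6406 ± 461 (SD, n = 2) in the parental libraries, a difference short of the threshold (limma, adjusted p = 0.438).

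The progenitor identity of the line was visible in its markers. All 13 markers of a myeloid progenitor reached the mean of 10 needed for testing. Their sums were lower in the clones, at 67520 to 75460, against 100900 and 89910 in the parental libraries. This gap was that of Mpo, which did not pass (adjusted p = 0.0629, limma). Mpo had 7872, 13840 and 20010 in clones 4, 12 and 18, against 42870 and 38610. Without Mpo the sums overlapped between the groups. Kit averaged 7060 ± 1370 in the clones and 5499 ± 335 in the parental libraries, and Cd34 15860 ± 1670 and 16000 ± 1790 (SD, n = 3 and n = 2). Ms4a3 averaged 273.6 ± 229 and 1349 ± 283 and Cebpa 1714 ± 76.2 and 881.9 ± 572, and neither passed. Of these 13, Csf2rb and Ptprc were higher in the clones, and Flt3, Prtn3 and Elane were lower; without clone 12 there were 1 and 0, without clone 18 there were 2 and 5, without parental replicate 1 there were 3 and 1, and without parental replicate 2 there were 1 and 1. Markers of other cell types also moved. Over all genes tested 7.51% were higher and 8.49% lower (adjusted p under 0.05, limma), the shares to set beside the counts here. The 16 mast cell, basophil and eosinophil markers summed to between 10390 and 13040 in the clones, against 3231 and 5545 in the parental libraries. By limma 6 of 9 tested were higher and 0 lower. At an unadjusted p under 0.05, with edgeR and with DESeq2, 0 were lower as well. Among those called, Tpsb2 averaged 216.8 in the clones and 0 in the parental libraries, Il1rl1 521 and 0.916, and Il5ra 77.01 and 2.762. These genes had enough reads to be tested only through the clones, so their part in the count is a description. The 10 B cell markers summed to between 2362 and 3108 in the clones, against 5079 and 5304, with 3 of 7 tested entries lower and 0 higher by the same 4 counts (1 lower without parental replicate 2), while Ms4a1 was at 0 in every library. Cd79b, 1 of the lower B cell entries, averaged 0.9387 in the clones and 85.51 in the parental libraries. It had enough reads to be tested only through the parental libraries, so its part in the count is a description. Sums also stood apart for the 12 stromal and endothelial markers (7533 to 9240 in the clones, 3387 and 3605 in the parental libraries). Pecam1 made up almost all of these sums, with Col3a1, Dcn, Pdgfra and Cdh5 at 0 throughout. The 10 megakaryocyte markers summed to between 8683 and 12200 in the clones, against 7183 and 7829. Of the 6 tested, 1 was called, Itga2b, which was higher, and without it the sums overlapped. The 14 monocyte and neutrophil markers summed to between 471.5 and 875, against 917.8 and 946.2. Of the 5 tested, 1 was called, Csf3r, which was lower (71.29 ± 27.2 in the clones, 261.8 ± 23.1 in the parental libraries). Without Csf3r these sums overlapped as well. Sums of the 12 dendritic markers were 6259 to 6673 in the clones and 8480 and 8680 in the parental libraries, mostly Flt3 and Tcf4, which were lower, while Itgax (39.4 ± 24.7 in the clones, 2.456 ± 1.28 in the parental libraries) and H2-Ab1 (300.5 ± 90 and 54.37 ± 13.2) were higher. The erythroid sums (1027 to 1448 in the clones, 357.4 and 1139 in the parental libraries) were mostly Car2 and differed mainly between the parental libraries. Of the 2 erythroid markers tested, 1 was higher and 0 lower. This was Hbb-b1, with 51.29, 61.55 and 25.36 in clones 4, 12 and 18, against 0 and 0.7633 (adjusted p = 0.00221, limma). It had enough reads to be tested only through the clones. Gata1, not tested, had 22.57, 18.47 and 7.926, against 0 and 0.1527. T and NK cell markers summed to at most 84.58 in any library. The part of these shifts in the results on the set was not tested, and in bulk libraries more cells of a type and more RNA per cell cannot be told apart.

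Among the stem cell and leukaemia factors, Hlf, Sox4 and Myb were higher in the knock-in clones, and Erg and Bahcc1 were lower. Myc and Etv6 did not pass the test, and Mecom, Mn1 and Prdm16 were at or near 0 in both groups. Thus 5 of the 8 tested entries were called (adjusted p under 0.05, limma on log2(value + 1)), where 16.0% of all 13132 genes tested were called. The genes were chosen with earlier results of these data known, so these shares are a description. By direction, 3 were higher against a background of 7.51%, and 2 were lower against 8.49%. Well counted genes are called more often: of the 3468 genes with a mean of at least 1000, which 7 of the 8 entries also have, 21.4% were called, 8.94% higher and 12.5% lower. The same 5 entries had groups that did not overlap, which held for 50.2% of all genes tested, 24.5% with the clones above and 25.8% with the clones below. The median log2 fold change of the 8 entries was 0.15, beside 0.01 over all genes tested. The number called fell to 1 of 8 without clone 12, without parental replicate 1 and without parental replicate 2, and Hlf was that gene each time.

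**Figure D1:**
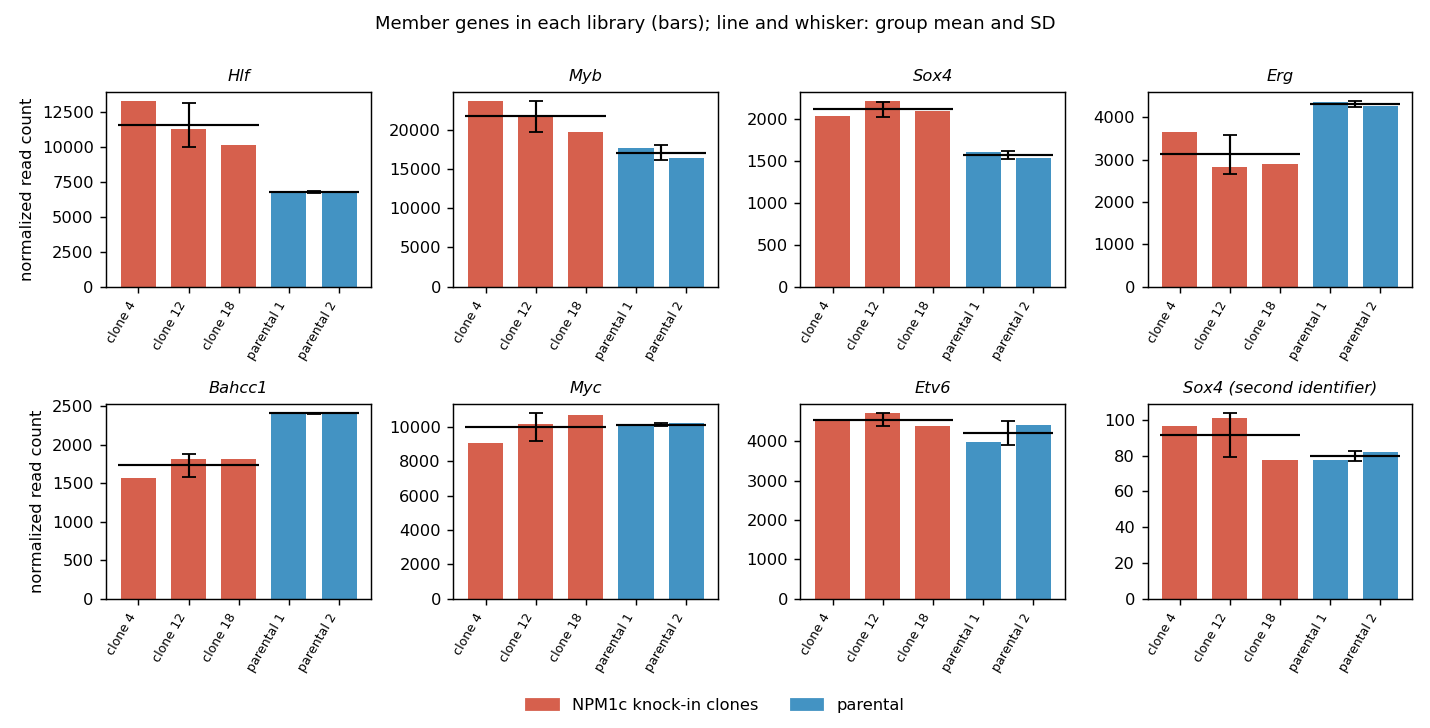
Normalized read count (vertical axes, linear from 0) of the 8 tested entries in each of the 5 libraries, clones in red and parental libraries in blue, with a black line and whisker for the mean and SD of each group. Each clone is above both parental libraries for Hlf, Myb and Sox4 and below both for Erg and Bahcc1, while the groups overlap for Myc, Etv6 and the second Sox4 identifier.

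Hlf, a basic leucine zipper factor that marks blood stem cells and is fused to TCF3 in a form of human lymphoblastic leukaemia, changed most. It had a normalized read count of 13310, 11290 and 10180 in clones 4, 12 and 18, against 6723 and 6850 in parental replicates 1 and 2. Every clone was thus above both parental libraries, and the lowest clone was 1.49 times the higher parental library. Mean levels were 11590 ± 1590 (SD, n = 3) in the clones and 6787 ± 90.2 (SD, n = 2) in the parental libraries, a 1.70-fold difference (log2 fold change 0.76, SE 0.114, 95% interval 0.50 to 1.03, adjusted p = 0.00518, limma). In size this was moderate, since 15.6% of all genes tested had a larger fold change in either direction. The call was kept under all 14 alternatives tried, with log2 fold changes from 0.66 to 0.85 and adjusted p from 6.8e-07 to 0.044.

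Sox4 encodes a high-mobility-group factor of early lymphoid and myeloid progenitors that is often raised in leukaemia. Its main identifier had 2037, 2218 and 2100 normalized reads in clones 4, 12 and 18, against 1608 and 1540 in the parental libraries. The groups did not overlap, and the clones lay closer together for Sox4 than for Hlf. Means were 2119 ± 92 (SD, n = 3) in the clones and 1574 ± 48.4 (SD, n = 2) in the parental libraries, 1.35-fold apart (log2 fold change 0.43, SE 0.0934, adjusted p = 0.0207, limma). The call was lost without clone 12 (adjusted p = 0.0926), parental replicate 1 (0.0522) or parental replicate 2 (0.103), with adjusted p from 0.000355 to 0.103 over the 14 alternatives. The second identifier listed as Sox4 had few reads, averaging 91.68 ± 12.3 in the clones against 79.76 ± 2.93 in the parental libraries (SD, n = 3 and n = 2), overlapped between the groups and did not pass (adjusted p = 0.566). Reads that fall in both entries could have been split or dropped by the authors' counting.

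Myb is the cellular form of a viral oncogene and keeps progenitors dividing through its coactivators EP300 and CREBBP. It had 23600, 21800 and 19690 normalized reads in clones 4, 12 and 18, against 17720 and 16430 in the parental libraries. The groups were separated only narrowly, the lowest clone being 1.11 times the higher parental library. Means of 21700 ± 1960 (SD, n = 3) in the clones and 17080 ± 913 (SD, n = 2) in the parental libraries gave a 1.27-fold difference (log2 fold change 0.34, SE 0.0907, adjusted p = 0.0412, limma). This was the weakest of the 5 calls by p. It was lost without clone 4 (adjusted p = 0.0543), clone 12 (0.129), parental replicate 1 (0.0732) or parental replicate 2 (0.202), and over the 14 alternatives adjusted p ran from 0.0168 to 0.202. With TMM scaling of the values it did not pass either (adjusted p = 0.0528).

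Erg and Bahcc1 made up the lower side. Erg, an ETS factor needed for stem cell maintenance, had 3652, 2817 and 2888 normalized reads in clones 4, 12 and 18, against 4360 and 4262 in the parental libraries. Clone 4 lay nearest to the parental level and still below it. Means were 3119 ± 463 (SD, n = 3) in the clones and 4311 ± 69.2 (SD, n = 2) in the parental libraries (log2 fold change -0.48, SE 0.125, adjusted p = 0.0395, limma). Without clone 12, clone 18, parental replicate 1 or parental replicate 2 it did not pass (adjusted p = 0.133, 0.103, 0.123 and 0.128), and adjusted p ran from 0.00382 to 0.133 over the 14 alternatives.

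Bahcc1, a chromatin protein that reads a repressive histone mark through its BAH domain, had 1563, 1813 and 1810 normalized reads in clones 4, 12 and 18, against 2404 and 2411 in the parental libraries. Every clone was below both parental libraries, which were nearly equal to each other. Means were 1729 ± 144 (SD, n = 3) in the clones and 2407 ± 5.08 (SD, n = 2) in the parental libraries (log2 fold change -0.48, SE 0.104, adjusted p = 0.02, limma). The call was lost without clone 12 (adjusted p = 0.0591), parental replicate 1 (0.0656) or parental replicate 2 (0.0887), within a range of 0.000687 to 0.0887 over the 14 alternatives. Every alternative kept the direction of these 5 genes.

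Myc, a regulator of growth and ribosome production, did not pass the test in any setting. It had 9063, 10170 and 10690 normalized reads in clones 4, 12 and 18, against 10060 and 10190 in the parental libraries. The clones lay on both sides of the parental values. The log2 fold change was -0.03 (SE 0.0887, adjusted p = 0.875, limma), with a 95% interval of -0.23 to 0.18. In the 14 alternatives it ranged from -0.08 to 0.04.

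Etv6, an ETS repressor that stem cells need in adult marrow and that is fused to RUNX1 in childhood leukaemia, had 4542, 4724 and 4397 normalized reads in clones 4, 12 and 18, against 3985 and 4420 in the parental libraries. Clone 18 fell just under the higher parental library, so the groups overlapped. The log2 fold change of 0.12 (SE 0.0872, 95% interval -0.085 to 0.32) did not pass (adjusted p = 0.395, limma), nor did it in any of the 14 alternatives.

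**Figure D2:**
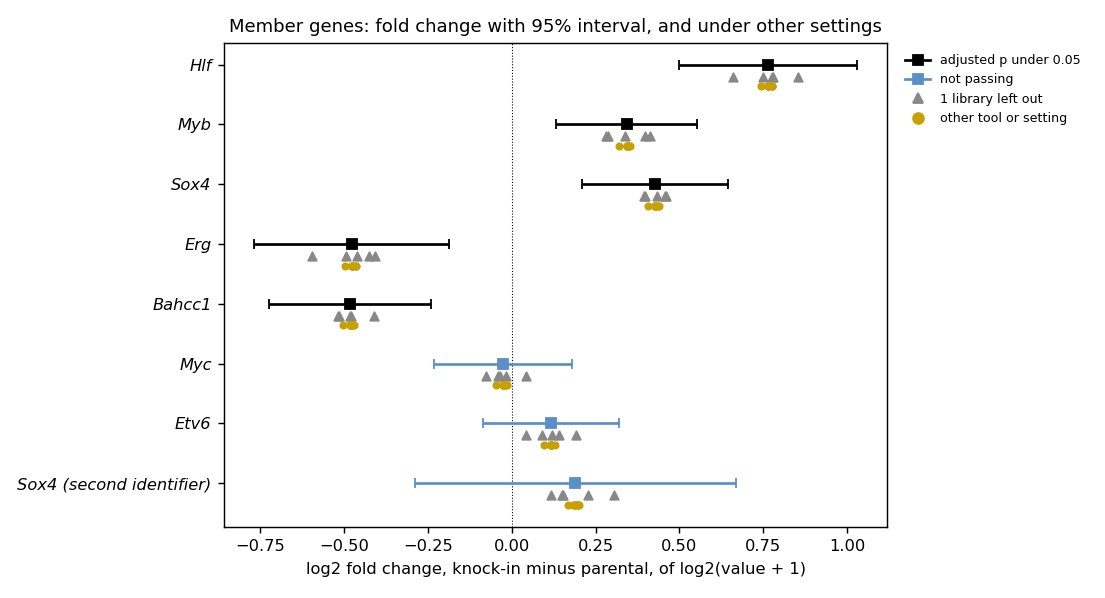
Log2 fold change (knock-in minus parental, horizontal axis) of the 8 tested entries with its unadjusted 95% interval (squares and whiskers), and below each the value with 1 library left out (grey triangles) or with another tool or setting (yellow dots). Hlf stands highest at 0.76, Erg and Bahcc1 lie at -0.48, and the alternatives of these 5 called genes stay on 1 side of 0.

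Mecom, Mn1 and Prdm16 were not detectable as expressed genes in this line. MECOM (EVI1) and its close relative PRDM16 are zinc finger factors of stem cells, and high MECOM or MN1 marks human myeloid leukaemias with poor outcome. Mecom had 1 read in 29020663 over the clones and 0 in 109285735 over the parental libraries. Mn1 had 1 read in each group, and Prdm16 had 0 in the clones and 1 in the parental libraries. A count of 0 allows up to 0.103 CPM in the clones and 0.0275 CPM in the parental libraries (3 reads over the group, the floor used for a count of 0). The exact 2-sided 95% Poisson upper limits are wider, at 0.127 and 0.0338 CPM for 0 reads and at 0.192 and 0.051 CPM for 1 read. These limits cover counting error only. No difference between the groups was detectable at this depth for these genes, and no fold change is given.

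Levels also varied among the clones. The intervals given here cover counting error only, and each clone is 1 library, so clones and library preparations cannot be told apart. For Hlf the highest clone, clone 4, was 1.31 times the lowest, clone 18, with a 95% counting interval of 1.26 to 1.35. Myb followed the same order, with clone 4 at 1.2 times clone 18 (1.17 to 1.23). Clone 4 was highest for Erg as well, at 1.3 times clone 12 (1.22 to 1.38). For Myc the order was turned round, with clone 18 at 1.18 times clone 4 (1.14 to 1.23), and clone 4 was also lowest for Sox4 and Bahcc1. The narrowest spread was that of Etv6, at 1.07 (1.02 to 1.13). For the second Sox4 identifier the interval of 0.901 to 1.89 included 1. Clone 4 has the fewest reads of all 5 libraries, and whether depth plays a part in its position was not tested.

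Ratios between these genes within a library do not depend on how libraries are scaled, and 18 of the 21 ratios among the 7 detected genes had groups that did not overlap, where 58.8% of all ratios between genes with a mean of at least 1000 did not. The ratio of Hlf to Erg reads was 3.64, 4.01 and 3.53 in clones 4, 12 and 18, against 1.54 and 1.61 in the parental libraries. A gap here follows from Hlf being higher and Erg lower; means were 3.73 ± 0.251 (SD, n = 3) in the clones and 1.57 ± 0.0462 (SD, n = 2) in the parental libraries. Hlf to Bahcc1 averaged 6.79 ± 1.52 in the clones and 2.82 ± 0.0315 in the parental libraries, and Sox4 to Bahcc1 averaged 1.23 ± 0.0716 and 0.654 ± 0.0215. The ratio of Myb to Erg was 7.01 ± 0.659 in the clones and 3.96 ± 0.148 in the parental libraries. By contrast Bahcc1 to Erg (0.566 ± 0.12 and 0.558 ± 0.0101) and Myb to Sox4 (10.3 ± 1.17 and 10.8 ± 0.246) overlapped, pairs whose genes lie on the same side. Etv6 to Myc overlapped as well. Not every pair on the same side did, since Hlf to Myb (0.533 ± 0.0269 and 0.398 ± 0.0266) and Hlf to Sox4 (5.49 ± 0.912 and 4.32 ± 0.19) stood apart. These ratios share genes and libraries, so they are given as a description with no test.

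**Figure D3:**
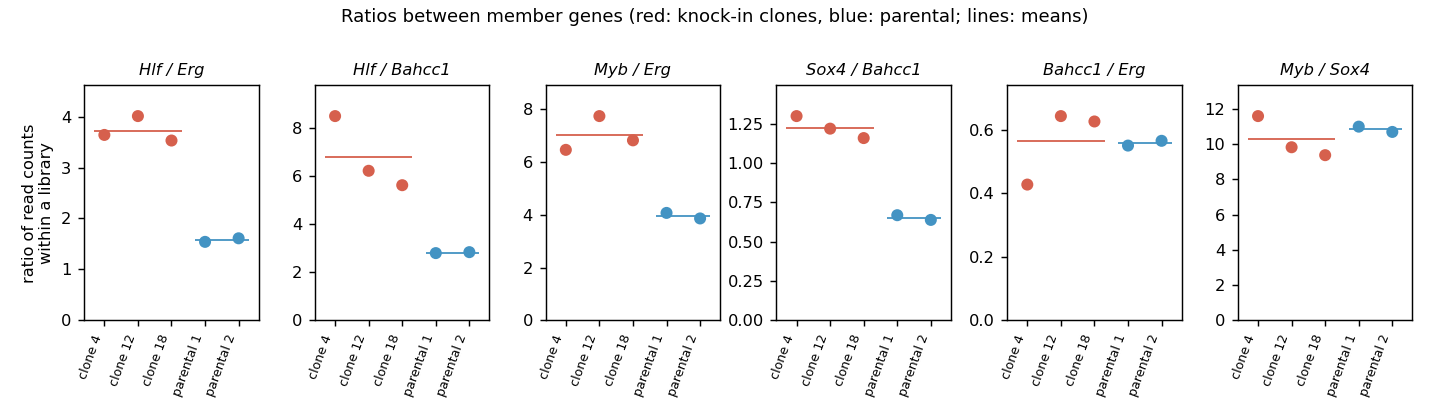
Ratio of read counts of 2 member genes within each library (vertical axes, linear from 0; clones red, parental libraries blue, lines at group means). Hlf to Erg lies between 3.53 and 4.01 in the clones, above 1.54 and 1.61 in the parental libraries, whereas Bahcc1 to Erg and Myb to Sox4 overlap.

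The relatives that share the set's DNA-binding folds moved in both directions. Of 26 genes listed, 22 were tested, 2 were higher, 4 were lower and 16 did not pass. Their median log2 fold change was -0.28 (over all genes tested 0.01, with 7.51% higher and 8.49% lower). Without parental replicate 1 or without parental replicate 2 the lower ones numbered 1 and the higher ones 2, and without clone 12 there were 2 of each. None of the 3 relatives of Hlf passed: Tef, a clock-controlled factor of the same leucine zipper family, averaged 1201 ± 97.4 in the clones and 1141 ± 5.44 in the parental libraries, Dbp 188.7 ± 13.6 and 232.6 ± 20.4, and the repressor Nfil3 74.1 ± 8.99 and 114.6 ± 22.4 (SD, n = 3 and n = 2). Of the 11 ETS relatives of Erg and Etv6, 1 was higher and 3 were lower. Ets1, a factor of lymphoid cells, had 75.91, 88.64 and 152.2 normalized reads in clones 4, 12 and 18, against 0 and 5.496 in the parental libraries (log2 fold change 5.32, SE 0.788, adjusted p = 0.0073, limma). Few or no reads fell on it in the parental libraries, and its log2 fold change depends on them: it was 3.97 without parental replicate 1, 6.67 without parental replicate 2, 3.87 at a pseudocount of 5 and 4.53 with edgeR. Elf2 averaged 3416 ± 82.1 in the clones and 5273 ± 430 in the parental libraries (log2 fold change -0.62, SE 0.0879, adjusted p = 0.00413, limma).

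Mycn, the close relative of Myc, was higher in the clones. It had 687.2, 731.3 and 491.4 normalized reads in clones 4, 12 and 18, against 293.6 and 298 in the parental libraries (log2 fold change 1.08, SE 0.192, adjusted p = 0.0101, limma), and passed with each library left out. Elf2 and Ets1 did so too. Whether Mycn and Myc differ in their change was not tested. Mybl2, a cell cycle relative of Myb, averaged 817.3 ± 257 in the clones and 1453 ± 271 in the parental libraries and did not pass (adjusted p = 0.0847), except without clone 18 (0.0254) and with DESeq2 (0.0136), in a range of 0.0136 to 0.255 over the 14 alternatives. Prdm1, the repressor that ends B cell identity in plasma cells and a relative of Mecom and Prdm16, had 2.051, 0 and 6.341 normalized reads in clones 4, 12 and 18, against 62.15 and 58.78 in the parental libraries (adjusted p = 0.0135, limma). Its call was lost without parental replicate 1 (adjusted p = 0.092) or 2 (0.103), in a range from 1.52e-05 to 0.103 over the 13 alternatives that tested it.

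**Figure D4:**
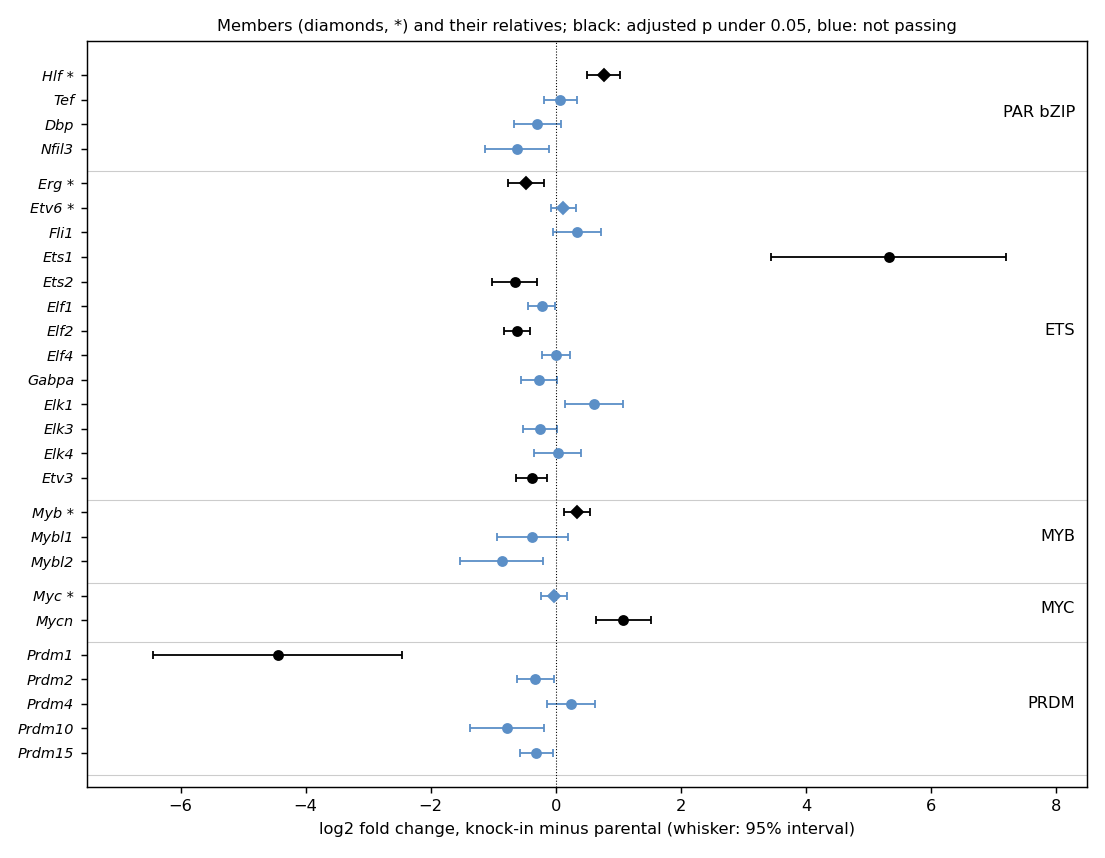
Log2 fold change (knock-in minus parental, horizontal axis) with unadjusted 95% interval for member genes (diamonds, starred) and their tested relatives (circles), grouped by DNA-binding family, in black where adjusted p was under 0.05 and in blue otherwise. Ets1 at 5.32 and Prdm1 at -4.45 lie farthest out, and Mycn at 1.08 lies above Myc at -0.03.

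Around Myc, some dimer partners and antagonists changed, in both directions. Of the 15 genes of the MYC network, all tested, 2 were higher, 5 were lower and 8 did not pass. Their median log2 fold change was -0.04 (over all genes tested 0.01, with 7.51% higher and 8.49% lower). Mxd4, an antagonist that competes with MYC for its partner MAX, had 1649, 1318 and 1259 normalized reads in clones 4, 12 and 18, against 755.1 and 594.3 in the parental libraries (log2 fold change 1.06, SE 0.161, adjusted p = 0.00565, limma). Mxi1, another antagonist of the same family, went the other way, averaging 384.1 ± 49.7 in the clones and 736.6 ± 15.6 in the parental libraries (adjusted p = 0.00685, limma). Max itself averaged 1406 ± 212 in the clones and 1358 ± 67.9 in the parental libraries and did not pass. Mlx, a partner of the MXD proteins, and Fbxw7, the ubiquitin ligase subunit that marks MYC for destruction, were 1.49-fold and 1.62-fold lower. Without clone 12 and without parental replicate 2 the network had 1 higher and 1 lower gene each time, Mlx and Fbxw7 being among those lost, and without parental replicate 1 it had 1 higher and 3 lower. Without clone 4 or clone 18, 1 was higher and 5 were lower.

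Of 25 textbook targets of MYC, all tested, 3 were higher, 3 were lower and 19 did not pass, with a median log2 fold change of 0.00. Over all genes tested 16.0% were called, 7.51% higher and 8.49% lower, and 21.4% of those with a mean of at least 1000. Mcm7, a subunit of the replicative helicase, averaged 4781 ± 929 in the clones and 8714 ± 190 in the parental libraries (adjusted p = 0.0141), and Ldha, lactate dehydrogenase, 9950 ± 658 and 14180 ± 1790 (adjusted p = 0.0147). Nop56, a nucleolar protein of ribosome assembly, averaged 11760 ± 525 and 14920 ± 813 (adjusted p = 0.0221), and Tert, the telomerase catalytic subunit, 18.35 ± 8.79 and 0.7633 ± 1.08 (adjusted p = 0.0234). Tert reached the minimum mean for testing only through the clones, so its call is a description. The parental libraries themselves differed in this list: in 6 of the 25 genes the first exceeded the second by over 1.5-fold, among them the nucleolar protein Ncl, with 3763 in replicate 1 and 934.6 in replicate 2. The split depended on the libraries used: 1 was higher and 4 lower without clone 4, 0 and 1 without clone 12, 7 and 2 without parental replicate 1, and 1 and 1 without parental replicate 2. Mcm7 was lost without parental replicate 2, Ldha without clone 12 or parental replicate 1, Nop56 without clone 12 or parental replicate 2, and Tert without parental replicate 1, and their adjusted p reached 0.0648, 0.0839, 0.142 and 0.0857 over the alternatives. For Tert these were 11, since its mean was under the minimum for testing in the other 3.

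Of the 14 listed targets of MYB, 13 were tested, 0 were higher, 3 were lower and 10 did not pass. Their median log2 fold change was 0.08 (over all genes tested 0.01, with 7.51% higher and 8.49% lower). By edgeR and by DESeq2 0 were higher as well, and at an unadjusted p under 0.05 limma had 1 higher. Without parental replicate 1 the list had 1 higher and 1 lower, and limma without trend or robust moderation called 0 in either direction. The 3 lower genes were Ccnb1, a mitotic cyclin (2733 ± 447 in the clones, 4684 ± 320 in the parental libraries), and the granule proteases Prtn3 (4215 ± 1210 and 8084 ± 438) and Elane (24.78 ± 17 and 140.7 ± 66.9). Mpo, the granule peroxidase of neutrophil precursors, had 7872, 13840 and 20010 normalized reads in clones 4, 12 and 18, against 42870 and 38610 in the parental libraries, and did not pass (adjusted p = 0.0629, limma). For Mpo, Prtn3 and Elane every clone was below both parental libraries. Ctsg, another granule protease, overlapped, averaging 1693 ± 261 in the clones and 1063 ± 1140 in the parental libraries (SD, n = 3 and n = 2). Without clone 12 and without parental replicate 2 the list had 1 lower gene. Ccnb1 was lost without parental replicate 2, Elane without clone 4, clone 12 or parental replicate 1, and Prtn3 without clone 4, clone 12 or either parental library, and over all alternatives their adjusted p reached 0.0696, 0.113 and 0.103.

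Among coactivators and corepressors of these factors, 1 of 16 was higher, 2 were lower and 13 did not pass. Their median log2 fold change was -0.07 (over all genes tested 0.01, with 7.51% higher and 8.49% lower). Ctbp2, a corepressor bound by MECOM and PRDM16, averaged 1348 ± 126 in the clones and 1900 ± 218 in the parental libraries, and Sin3a, a scaffold of histone deacetylase complexes, 3997 ± 120 and 5073 ± 567 (adjusted p = 0.0329 and 0.0493, limma). Ctbp2 was lost without clone 12, clone 18 or parental replicate 2 and Sin3a without clone 4, 12 or 18 or parental replicate 2, with adjusted p of up to 0.176 and 0.267, which left 0 lower genes without clone 12 or parental replicate 2 and 1 without clone 4 or clone 18. Without parental replicate 1 the list had 2 higher genes. Ep300 and Crebbp, the coactivators of MYB, did not pass.

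Other regulators of stem cells were higher in the clones where they were called. Of 26 listed, 20 were tested, 6 were higher, 0 were lower and 14 did not pass. Their median log2 fold change was 0.21 (over all genes tested 0.01, with 7.51% higher and 8.49% lower). By edgeR and DESeq2 0 were lower as well, and at an unadjusted p under 0.05 limma had 1 lower. Gata2, which acts in stem cells and also in mast cells, had 5293, 4571 and 4058 normalized reads in clones 4, 12 and 18, against 1868 and 1674 in the parental libraries (log2 fold change 1.38, SE 0.126, adjusted p = 0.000838, limma). Tal1, its partner in early blood cells, averaged 3141 ± 410 in the clones and 1854 ± 7.58 in the parental libraries, and Msi2, an RNA-binding regulator of stem cells, 2507 ± 316 and 1433 ± 73.7. For Gata2 and Tal1 the clones ranked 4, 12, 18 from high to low, the order seen for Hlf and Myb. Mxd4, Itga2b and Pecam1, outside this list and the set, ranked so too, and the share over all genes was not taken. All 3 of these genes and Mycn, also in the list, passed with each library left out. Gata2 is itself 1 of the 16 mast cell, basophil and eosinophil markers, and the part of that list in its result was not tested. Hoxa9, Lin28b, Nkx2-3, Tcf15 and Zfp521 had no read in any library.

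Surface genes of stem cells and early progenitors were split. Of 22 listed, 14 were tested, 3 were higher, 2 were lower and 9 did not pass. Their median log2 fold change was 0.43 (over all genes tested 0.01, with 7.51% higher and 8.49% lower). Itga2b, the CD41 integrin of early progenitors and megakaryocytes, had 2675, 2024 and 1783 normalized reads in clones 4, 12 and 18, against 195.8 and 222.7 in the parental libraries (log2 fold change 3.34, SE 0.181, adjusted p = 0.000112, limma). Cd27, a receptor of lymphoid-primed progenitors, was nearly absent from the clones at 2.443 ± 1.11, against 272.8 ± 27.6 in the parental libraries (adjusted p = 0.000222, limma). Cd48 averaged 639.3 ± 121 in the clones and 295.3 ± 28.5 in the parental libraries, Ptprc, the pan-leukocyte CD45, 11250 ± 2130 and 7516 ± 422, and Flt3, the receptor of early lymphoid and myeloid progenitors, 3812 ± 348 and 5483 ± 53.2. Ptprc was lost without clone 12, parental replicate 1 or parental replicate 2 and Flt3 without clone 12 or parental replicate 2, with adjusted p of up to 0.14 and 0.0644 over all alternatives, and the list had 2 higher and 1 lower genes without clone 12 or parental replicate 2, and 5 and 2 without clone 4. Procr, Thy1 and Ctnnal1, listed as markers of long-term stem cells, were mixed. Procr averaged 209.8 ± 77.7 in the clones and 112.5 ± 18.4 in the parental libraries, Thy1 407.1 ± 50.5 and 295.1 ± 123, and Ctnnal1 111.3 ± 33.8 and 153 ± 25.2 (SD, n = 3 and n = 2), and none of these 3 passed. The 8 genes with too few reads to test included Fgd5, Tek and Robo4, with no read, and Slamf1, Ly6a, Esam and Il7r.

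Further genes that are fused, moved or raised in acute leukaemia changed in both directions. Of 24 listed, 16 were tested, 3 were higher, 5 (Npm1 included) were lower and 8 did not pass. Their median log2 fold change was -0.18 (over all genes tested 0.01, with 7.51% higher and 8.49% lower). Mll1 (now Kmt2a), the histone methyltransferase rearranged in leukaemia, had 2302, 2420 and 2440 normalized reads in clones 4, 12 and 18, against 1282 and 1214 in the parental libraries (log2 fold change 0.94, SE 0.0923, adjusted p = 0.00097, limma). Ptk7, a receptor-like protein of early progenitors, averaged 28.04 ± 8.54 in the clones and 681 ± 166 in the parental libraries, and Cd33, a myeloid surface lectin, 2740 ± 197 and 5317 ± 731 (adjusted p = 0.000246 and 0.00202, limma). These 3 passed with each library left out. Without clone 12 or parental replicate 2 the list had 2 higher and 3 lower genes. Csf2rb, the shared beta chain of the interleukin-3, interleukin-5 and GM-CSF receptors and a marker of the line, averaged 4360 ± 702 in the clones and 1510 ± 15.8 in the parental libraries (adjusted p = 0.000909, limma).

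**Figure D5:**
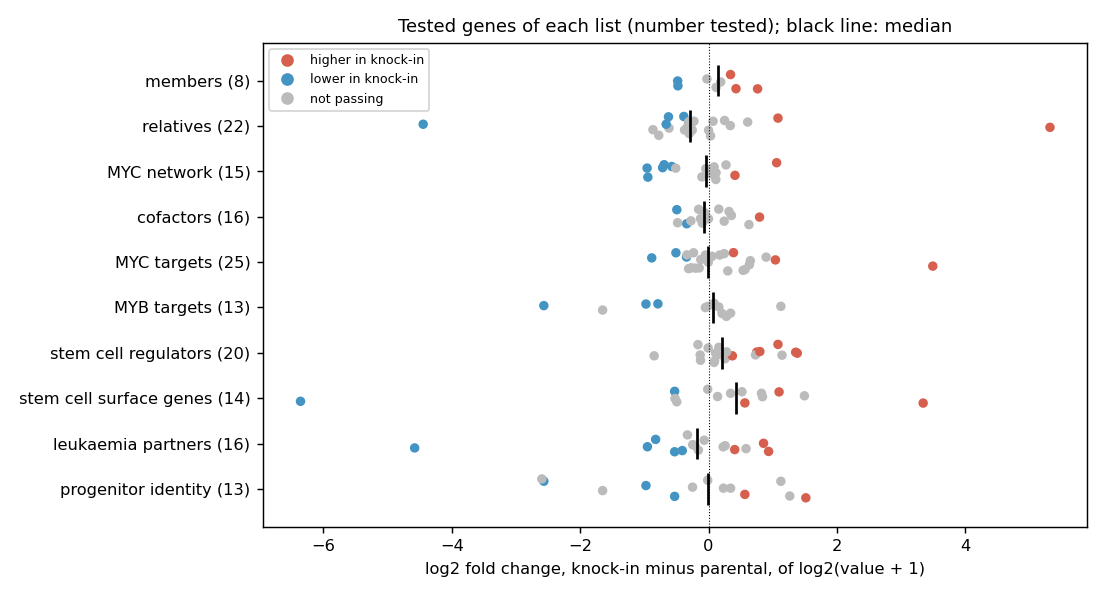
Log2 fold change (knock-in minus parental, horizontal axis) of each tested gene in the set and in 9 related lists, red where higher and blue where lower in the clones at adjusted p under 0.05 and grey otherwise, with a black line at each list's median. Medians run from -0.28 in the relatives to 0.43 in the stem cell surface genes, and the called stem cell regulators all lie above 0.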

How the data were processed

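Per the labels' protocols, an RNeasy micro kit served for RNA and NEBNext Ultra II for the mouse libraries. Tools listed by the submitters' processing notes are DESeq2, RSEM and STAR 2.6.1, with mm9 and hg19 as builds; which step each served is not given. Whether counting used strand is likewise not given in these sources, so reads of overlapping antisense genes cannot be told apart. The deposited signal per gene is a read count that the authors divided by 1 size factor per library: dividing each library by its lowest nonzero value gave whole numbers (tolerance 0.01) for 100% of entries, so reads could be recovered.

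Genes averaging 10 or more (13132 of 37991) were tested with limma 3.58.1 (trend, robust) on log2(value + 1), in R 4.3.3, with Benjamini-Hochberg adjustment over all of them. Adding 1 draws the libraries' log2 values of a gene with few reads together, which tends to understate its change, although a fitted change can still exceed that from counts. Named genes whose mean reached 10 in the clones only were Ets1, Tert, Itgax, Hbb-b1, Tpsb2, Il1rl1 and Il5ra. Those reaching it in the parental libraries only were Prdm1, Cd27 and Cd79b. Calls of these genes are a description. Intervals are 95% and unadjusted. Alternatives were other pseudocounts (0.5 and 5), filters and scalings, limma without trend or robust moderation, edgeR 4.0.16 and DESeq2 1.42.0 on recovered reads (2206 and 2681 genes called, against 2101), and each library left out; where 1 parental library remained, it was assumed to vary like the clones. The fits were also run on simulated libraries drawn independently, which does not cover relatedness among the clones or among the parental libraries.

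The members and lists were chosen with earlier results of these data known. Named from each list were at most 4 called genes, those with the smallest p, or all where 5 or fewer were called. The higher gene among the coactivators and corepressors is not reported here. Other genes named were chosen after their values were seen.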

Additional observations from a re-analysis of the deposited data

How the results depend on the processing

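Npm1 and Hlf kept their calls under all 14 alternatives, and Myc, Etv6 and the second Sox4 identifier never passed. Of 2101 genes called over the whole table (986 higher, 1115 lower), limma without trend or robust moderation called 1271 (651 higher, 620 lower), and leaving out single libraries gave 990 to 2115 in all, 468 to 1230 higher and 400 to 1126 lower. Of the 5 set members called (3 higher, 2 lower), 3 remained without a filter (2 higher, 1 lower) and 1 without trend or robust moderation (1 higher, 0 lower), and leaving out single libraries gave 1 to 4 in all, 1 to 3 higher and 0 to 2 lower. Of 43 called list genes (20 higher, 23 lower), 24 were called without trend or robust moderation (10 lower), and leaving out single libraries gave 21 to 41 in all, 12 to 26 higher and 8 to 24 lower. Among the called set members and the called list genes followed through these alternatives, 0 changed direction; Myc, not called, ran from -0.08 to 0.04 (log2). The cause of the losses was not tested; a fit with 1 library left out has fewer samples. No paired analysis was possible because the clones and the parental libraries share no replicate number. Read depth limits Mecom, Mn1 and Prdm16, for which no difference could be tested.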
